A study of Drosophila melanogaster with 15 samples.

Results

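The mitochondrial ribosomal protein genes of *Drosophila* encode the proteins of the ribosome that works inside mitochondria. Here they were taken as every gene whose symbol in the deposited count table starts with mRpL or mRpS, a rule that used no measured value. The rule found 73 genes, 47 mRpL and 26 mRpS, among 16727 genes listed. Of these, 72 passed the filter on low counts and were tested, among 8726 genes tested in all, and *mRpL53* did not pass. Reads were counted in ovarian somatic cells (OSCs), a cultured line of somatic cells from the fly ovary. The cells were treated for 48 h with siRNA against *l(3)mbt* (L(3)mbt KD), against *lint-O*, which the table lists as *CG2662* (Lint-O KD), or against EGFP (control), with 3 libraries per condition. L(3)mbt is a chromatin protein that represses germline genes in somatic cells, and Lint-O is a protein that binds it. The knockdowns are transient, all libraries come from one cell line, and nothing in the labels says that replicates were separate cultures, so p-values measure only the spread between these libraries.

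Each library held 19139572 to 32274601 reads assigned to genes. *l(3)mbt* was at 55.6% of control in L(3)mbt KD and *CG2662* at 16.9% of control in Lint-O KD. In the other knockdown, *l(3)mbt* was at 132.7% of control in Lint-O KD (log2 fold change 0.41, adjusted p = 4.11e-05) and *CG2662* at 113.8% in L(3)mbt KD (0.19, adjusted p = 0.0483, not past the threshold). The OSC markers *tj*, *piwi*, *fs(1)Yb* and *zfh1* were at 132 CPM or more in all 9 libraries, while a further one, *Fas3*, was at 29.4 to 35.2 CPM in L(3)mbt KD libraries and 19.3 to 20.5 CPM in Lint-O KD, against 16.3 to 18.5 CPM in control. Of the markers of other cell types, the fat body genes *Fbp1* and *Fbp2* had no count in any library. *Lsp2*, also of the fat body, had at most 2 counts in an L(3)mbt KD library and none in Lint-O KD or control. The hemocyte genes *Hml* and *NimC1* stayed under 1 CPM. The muscle gene *Mlc2* was at 24.9 to 27.2 CPM in L(3)mbt KD libraries and 7.19 to 8.60 CPM in Lint-O KD, against 3.26 to 3.64 CPM in control, whereas the ranges of *Mhc*, also a muscle gene, overlapped with control in each knockdown. The ranges of 4 of the 6 germ cell genes (*vas*, *nos*, *bam* and *bgcn*) lay above control in both knockdowns. Of these *vas*, of the class that the study expected to be derepressed, was at 337 to 391 CPM in L(3)mbt KD libraries and 178 to 186 CPM in Lint-O KD, against 3.18 to 3.75 CPM in control. The part of these marker genes in the results was not tested. The share of reads assigned to no feature was 2.93% to 4.14% in L(3)mbt KD libraries and 4.43% to 7.38% in Lint-O KD, and in control it was 8.45%, 7.97% and 2.76%. The control libraries at 8.45% and 7.97% thus lay above every knockdown library, and that at 2.76% lay below all of them. Fits with this share as a covariate, or on only the libraries with a share under 5%, are given where they bear on a result.

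Mitochondria translate only the few proteins that their own genome encodes, which are core subunits of the respiratory chain and of ATP synthase. All proteins of the mitochondrial ribosome are encoded in the nucleus, made in the cytoplasm and imported. Some are homologues of bacterial ribosomal proteins, and others are found only in mitochondrial ribosomes. The roles given below are known mainly from bacterial and mammalian ribosomes.

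In control, the 72 members tested stood between 14.0 and 151 FPKM, a level per exon length, with a median of 61.9 FPKM. The highest mean levels were those of *mRpL23* (151 ± 3.4 FPKM), *mRpL28* (143 ± 5.1 FPKM), *mRpS7* (137 ± 8.1 FPKM), *mRpL12* (132 ± 3.2 FPKM) and *mRpL55* (122 ± 4.4 FPKM; SD, n = 3 each). Within 1 SD, *mRpL28* overlapped with *mRpS7* and *mRpS7* with *mRpL12*, and *mRpL55* could not be told from the next member, *mRpL30* (121 ± 5.2 FPKM). The lowest members above 0 were *mRpL13* (14.0 ± 1.9 FPKM), *mRpL54* (25.4 ± 1.0 FPKM), *mRpL21* (27.1 ± 0.21 FPKM) and *mRpL43* (27.2 ± 1.2 FPKM). Of these, *mRpL43* overlapped with *mRpL54* and *mRpL21* within 1 SD, and the next member, *mRpL34* (28.1 ± 5.1 FPKM), overlapped with all but *mRpL13*. *mRpL53* had no count in any of the 9 libraries. All 829 of its exon bases lie within exons of *CG33155* on the same strand, so reads from it cannot be told from those of *CG33155* by position. *CG33155* itself had 4, 4 and 1 counts in L(3)mbt KD libraries, 8, 0 and 2 in Lint-O KD and 0, 0 and 0 in control. Whether *mRpL53* is transcribed cannot be told from these counts. *mRpL13* shares 35.2% of its exon bases with *CG10602* on the same strand, which limits its level in the same way.

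A part of these genes was lower after depletion of L(3)mbt, and none was called higher. In L(3)mbt KD against control, 27 of the 72 members passed the threshold of an adjusted p under 0.01 downward (edgeR's quasi-likelihood test), where 15.9% of all genes tested were lower. None of the 72 was called higher, where 22.6% of all genes tested were higher. At an unadjusted p under 0.05, 2 members were higher, and DESeq2 called 0. The median log2 fold change of the members was -0.20, against -0.02 for all genes tested, and 65 of the 72 were below 0. The members called fell by between 0.23 and 0.53 on the log2 scale. In 43 members all 3 L(3)mbt KD libraries lay below all 3 control libraries, as they did in 26.8% of all genes tested, and in 3 members they lay above, as in 30% of all genes tested. When libraries were scaled by their totals alone, the median of the members was -0.14, against 0.04 for all genes tested, and 55 were below 0. With the exon length correction the median was -0.15, and 63 were below 0. The count of lower members was 17 without L(3)mbt KD replicate 2, 15 with library totals and 20 with the share of no-feature reads as a covariate.

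The summed level of all members showed the same direction in every library. It was 3720, 3562 and 3766 CPM in L(3)mbt KD libraries and 3882, 3699 and 3763 CPM in Lint-O KD, against 4048, 4116 and 4240 CPM in control. No knockdown library reached the lowest control library. The means corresponded to 89.1% of control in L(3)mbt KD and 91.5% in Lint-O KD. For the mRpS genes alone they were 87.3% and 90.2% of control, and for the mRpL genes 90.2% and 92.2%. Together the members made up 0.364% to 0.411% of the reads counted on genes. In bulk RNA, fewer cells of a type and less RNA per cell cannot be told apart.

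**Figure D1:**
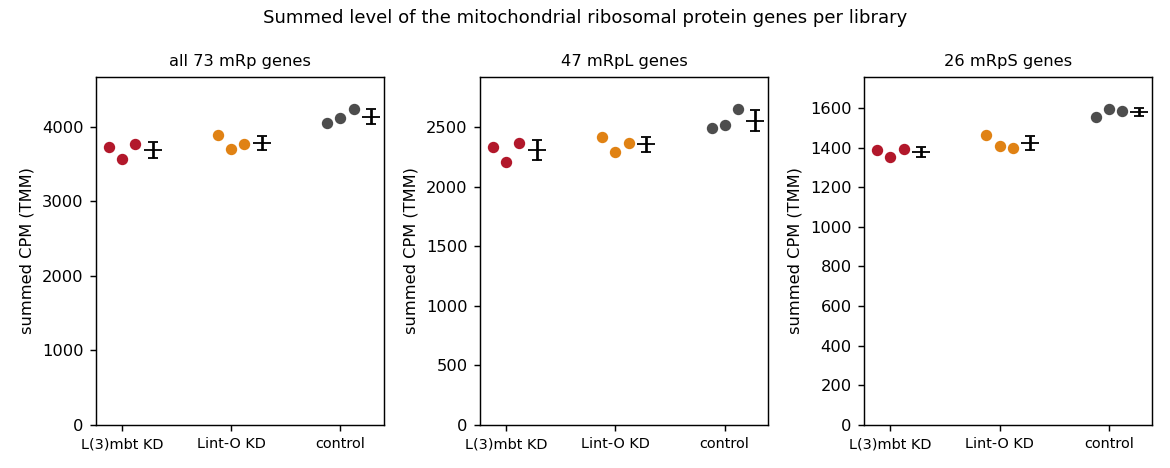
Summed CPM (y axis, from 0) of all 73 mRp genes, the 47 mRpL genes and the 26 mRpS genes in each library of L(3)mbt KD, Lint-O KD and control (x axis). Points are libraries, and the bar beside them is the mean with its SD (n = 3). For all mRp genes the knockdown libraries lie between 3562 and 3882 CPM, below the control libraries at 4048 to 4240 CPM.

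*mRpS18C* had the largest fall in L(3)mbt KD. It encodes the homologue of bacterial S18 in the small subunit. It was at 18.1, 15.04 and 16.8 CPM in L(3)mbt KD libraries and at 18.3, 17.8 and 16.7 CPM in Lint-O KD, against 23.7, 24.2 and 24.4 CPM in control. All 6 knockdown libraries lay below all 3 control libraries. The log2 fold change was -0.53 ± 0.083 in L(3)mbt KD (SE, adjusted p = 1.45e-05, edgeR) and -0.45 ± 0.084 in Lint-O KD (adjusted p = 0.000197). Of its exon bases, 11% are shared with *CG15536* on the opposite strand. The divergent start of *CG15535* lies 45 bases from its own, and *CG15535* was not called in either knockdown (-0.14 in L(3)mbt KD and -0.21 in Lint-O KD). The 150 bases before its annotated start, at chr3R:30423824-30423973 on the plus strand (RefSeq, Release 6, dm6), are shown because this gene fell most. They hold 3 copies of the hexamer ATCGAT. The copies at bases -103 to -98 and -95 to -90 lie beyond the start of *CG15535*. Capitals mark the hexamer:

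mRpS18C: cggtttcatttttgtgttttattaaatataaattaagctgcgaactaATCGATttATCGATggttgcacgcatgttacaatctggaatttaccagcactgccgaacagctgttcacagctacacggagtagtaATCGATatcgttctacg

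Among the other members named for the size of their fall in L(3)mbt KD were *mRpL41* and *mRpL37*, large-subunit proteins found only in mitochondrial ribosomes. *mRpL41* was at 30.4, 28.02 and 28.7 CPM in L(3)mbt KD, against 41.1, 38.7 and 41.5 CPM in control (log2 fold change -0.48 ± 0.070, adjusted p = 7.10e-06). *mRpL37* was at 89.8, 86.9 and 83.5 CPM in L(3)mbt KD, against 109, 117 and 127 CPM in control (-0.44 ± 0.062, adjusted p = 3.80e-06). In both genes every control library stood above every L(3)mbt KD library. Both were also called lower in Lint-O KD, where *mRpL41* was at 35.1, 34.1 and 30.8 CPM (-0.28, adjusted p = 0.00365) and *mRpL37* at 96.2, 104 and 97.4 CPM (-0.25, adjusted p = 0.00336). In Lint-O KD both calls were lost with library totals and without Lint-O KD replicate 3, that of *mRpL41* also without Lint-O KD replicate 2, and that of *mRpL37* also without control replicate 3 or Lint-O KD replicate 1.

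*mRpS33*, a mitochondria-specific protein of the small subunit, was at 27.6, 25.8 and 32.8 CPM in L(3)mbt KD libraries and 38.8, 35.4 and 34.8 CPM in Lint-O KD, against 38.2, 39.9 and 38.5 CPM in control. The L(3)mbt KD libraries lay below all others, whereas the Lint-O KD libraries overlapped with control. Its log2 fold change was -0.43 ± 0.081 in L(3)mbt KD (adjusted p = 0.000122) and -0.09 ± 0.080 in Lint-O KD (adjusted p = 0.389). *mRpL21*, a homologue of bacterial L21 in the large subunit, fell by 0.35 on the log2 scale in L(3)mbt KD (adjusted p = 0.000192), with 35.1, 34.7 and 38.4 CPM in L(3)mbt KD against 45.7, 45.6 and 46.3 CPM in control. *mRpS2*, the homologue of bacterial S2, fell by 0.33 (adjusted p = 0.000828), with 35.8, 35.4 and 38.9 CPM in L(3)mbt KD against 44.5, 43.6 and 50.4 CPM in control. Its Lint-O KD libraries, at 40.2, 43.1 and 46.8 CPM, overlapped with control.

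**Figure D2:**
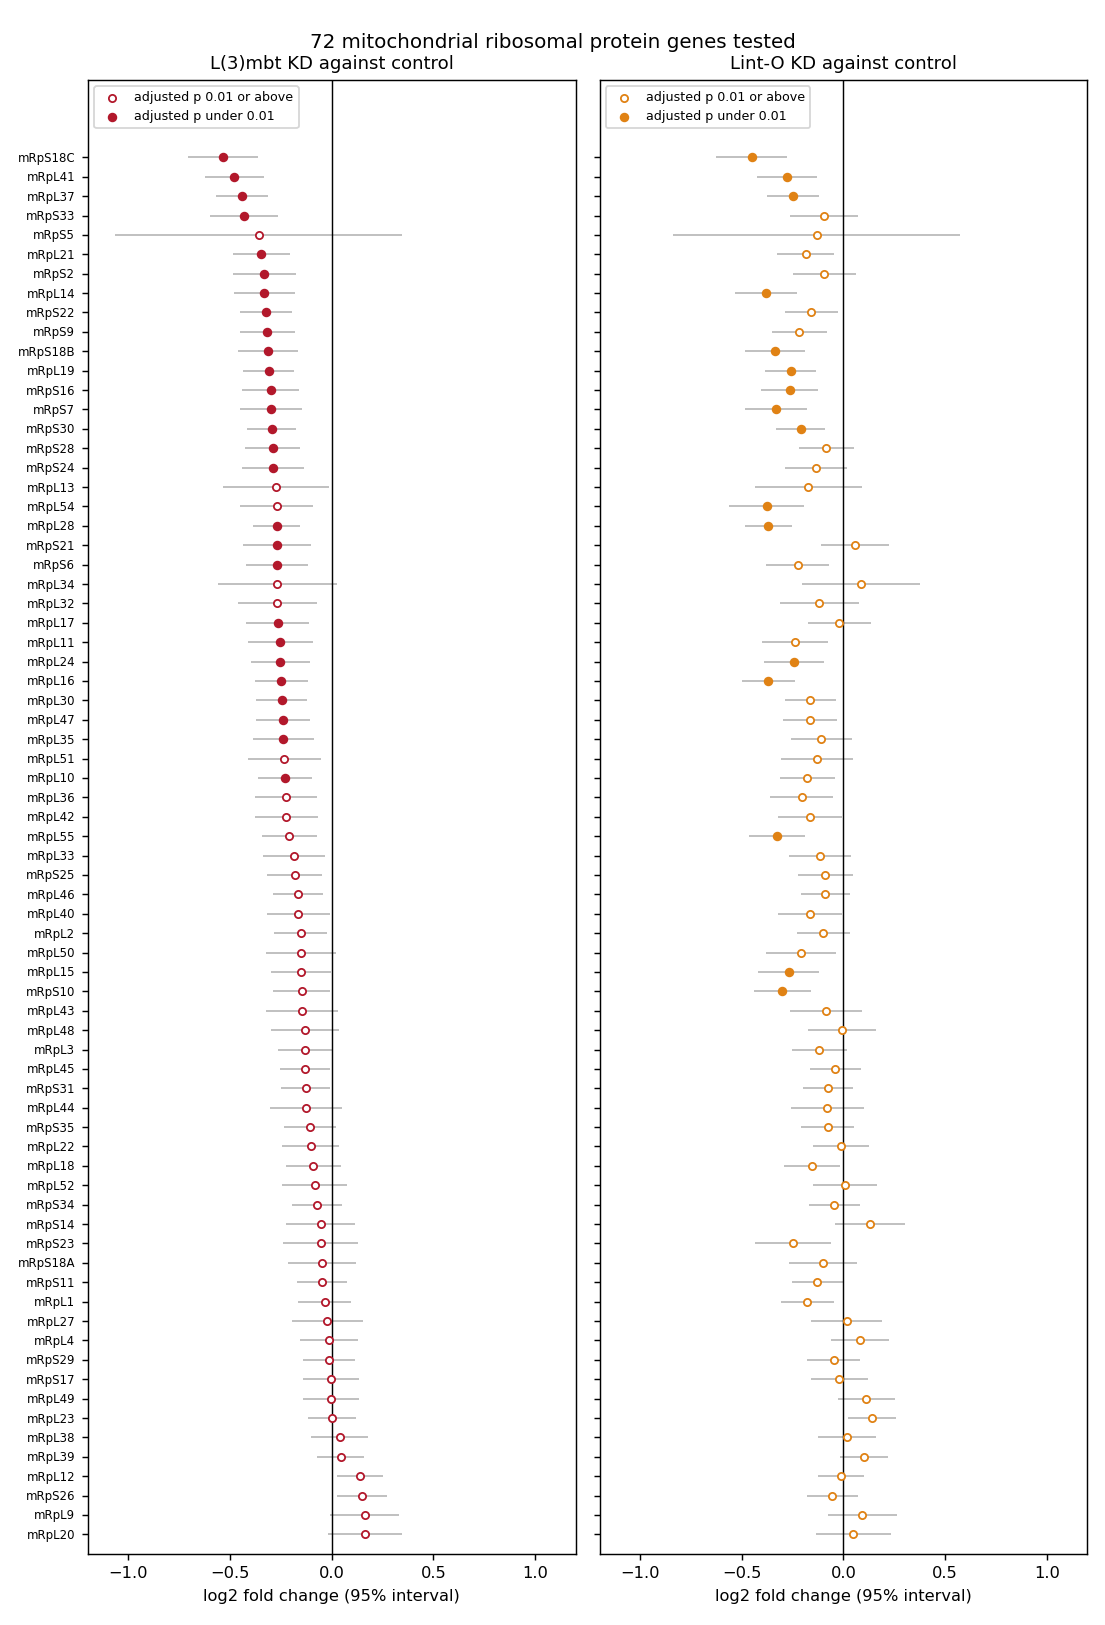
Log2 fold change (x axis, with its 95% interval) of the 72 members tested, in L(3)mbt KD (left) and Lint-O KD (right) against control, with the same order of genes in both panels. Filled points have an adjusted p under 0.01, and these lie to the left of 0 in both panels, 27 on the left and 16 on the right. Both comparisons use the same 3 control libraries.

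A part of the members was also lower after depletion of Lint-O. In Lint-O KD against control, 16 of the 72 members were called lower, where 7.58% of all genes tested were lower, and 0 were called higher, where 16.8% of all genes were higher (edgeR). At an unadjusted p under 0.05, 1 member was higher, and DESeq2 called 0. The median log2 fold change of the members was -0.12, against 0.01 for all genes tested, and 60 of the 72 were below 0. The members called fell by between 0.21 and 0.45 on the log2 scale. All 3 Lint-O KD libraries lay below all control libraries in 34 members, as in 20.5% of all genes tested, and above them in 3 members, as in 26.6% of all genes tested. With library totals the median of the members was -0.09, against 0.04 for all genes tested, and 55 were below 0. The count of lower members was 9 without Lint-O KD replicate 2, 8 without Lint-O KD replicate 3 and 10 with library totals. It was 3 when only the libraries with under 5% of no-feature reads were used, which leaves 1 Lint-O KD and 1 control library.

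After *mRpS18C*, the largest falls in Lint-O KD were those of *mRpL14*, *mRpL54*, *mRpL16*, *mRpL28* and *mRpS18B*. *mRpL14*, whose bacterial homologue lies at the interface of the subunits, was at 36.4, 34.5 and 34.2 CPM in Lint-O KD, against 46.9, 43.8 and 46.1 CPM in control (-0.38 ± 0.073, adjusted p = 0.000282). *mRpL16*, whose bacterial homologue lies close to the tRNA binding sites, was at 54.5, 53.3 and 57.5 CPM in Lint-O KD, against 68.05, 72.2 and 73.2 CPM in control (-0.37 ± 0.063, adjusted p = 7.12e-05). In both genes the 3 Lint-O KD libraries lay below all control libraries. *mRpL28*, a homologue of bacterial L28 and one of the members with the highest levels, was at 136, 122 and 129 CPM in Lint-O KD, against 160, 171 and 169 CPM in control (-0.37 ± 0.057, adjusted p = 2.08e-05). The mitochondria-specific *mRpL54*, one of the lowest members, was at 14.2, 13.0 and 12.7 CPM in Lint-O KD, against 18.1, 17.2 and 16.7 CPM in control (-0.38 ± 0.089, adjusted p = 0.00197). Its Lint-O KD libraries also lay below all control libraries, and its call was lost without Lint-O KD replicate 2 or 3. In L(3)mbt KD these genes had log2 fold changes of -0.33 (*mRpL14*), -0.25 (*mRpL16*), -0.27 (*mRpL28*) and -0.27 (*mRpL54*), the last not past the threshold (adjusted p = 0.0129).

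**Figure D3:**
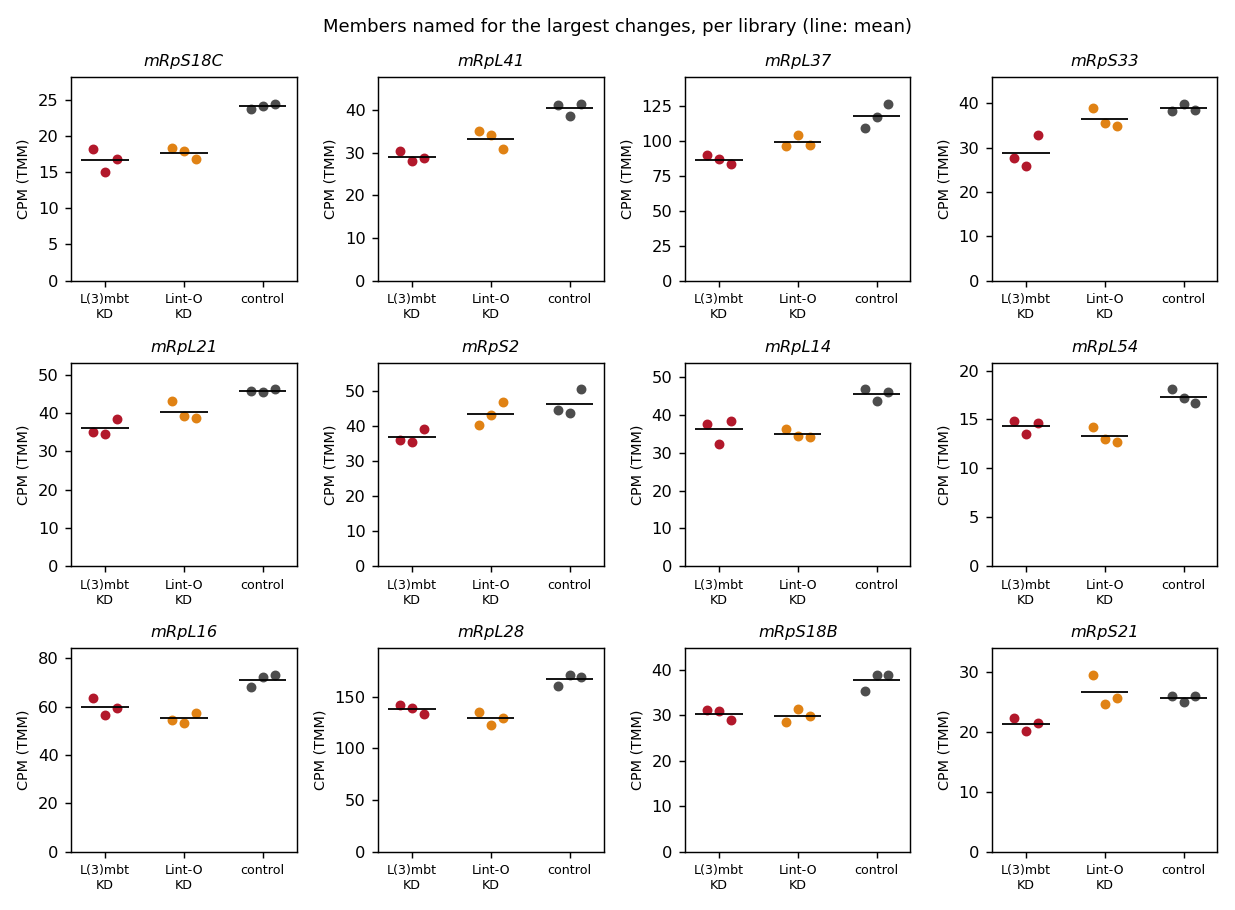
CPM (y axis, from 0) in each library of the 12 members named for the largest changes, for L(3)mbt KD, Lint-O KD and control (x axis). Points are libraries and lines are means. *mRpS18C* stands at 15.04 to 18.3 CPM in the knockdown libraries and at 23.7 to 24.4 CPM in control. *mRpS33* and *mRpS21* lie below control in L(3)mbt KD and overlap with it in Lint-O KD.

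Of the 72 members, 12 were called lower in both knockdowns, 15 in L(3)mbt KD only, 4 in Lint-O KD only and 41 in neither. These counts share their control libraries, so the overlap is given as a description. The 12 were *mRpL14*, *mRpL16*, *mRpL19*, *mRpL24*, *mRpL28*, *mRpL37*, *mRpL41*, *mRpS7*, *mRpS16*, *mRpS18B*, *mRpS18C* and *mRpS30*. They fell by 0.25 to 0.53 on the log2 scale in L(3)mbt KD and by 0.21 to 0.45 in Lint-O KD. With 1 library left out, at least 1 of the fits lost the call of *mRpL16*, *mRpL24* and *mRpS7* in L(3)mbt KD, and of *mRpL19*, *mRpL24*, *mRpL37*, *mRpL41*, *mRpS7*, *mRpS16* and *mRpS30* in Lint-O KD. The 15 called in L(3)mbt KD only had log2 fold changes from -0.24 to 0.06 in Lint-O KD, and the 4 called in Lint-O KD only (*mRpL15*, *mRpL54*, *mRpL55* and *mRpS10*) had values from -0.27 to -0.15 in L(3)mbt KD. Being called in one knockdown and not in the other is no test of a difference between them. No member was called in opposite directions.

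That difference was tested directly in L(3)mbt KD against Lint-O KD. Here 2 of the 72 members were called lower, where 6.83% of all genes were lower, and 0 were called higher, where 9.24% of all genes were higher (edgeR). At an unadjusted p under 0.05, 5 members were higher, and DESeq2 called 1, *mRpS26*. The 2 lower members were *mRpS33* (-0.34 ± 0.081, adjusted p = 0.00358) and *mRpS21* (-0.33 ± 0.081, adjusted p = 0.00452). *mRpS21*, the homologue of bacterial S21, was at 22.2, 20.1 and 21.5 CPM in L(3)mbt KD libraries and 29.5, 24.7 and 25.7 CPM in Lint-O KD, with 25.9, 24.9 and 26.03 CPM in control. Its L(3)mbt KD libraries lay below the other 6, which overlapped with each other. Against control its log2 fold change in L(3)mbt KD was -0.27 ± 0.080 (adjusted p = 0.00802, edgeR). That call was lost with DESeq2, library totals and the no-feature covariate. It was also lost without control replicate 1 or 3, or L(3)mbt KD replicate 1, 2 or 3. *mRpS21* shares 48.0% of its exon bases with *CG8870* on the opposite strand, and the strand setting of the counting is not given in the sources used here. Between the knockdowns, neither *mRpS33* nor *mRpS21* was called without L(3)mbt KD replicate 2, without Lint-O KD replicate 1 or with the no-feature covariate. *mRpS21* was also not called without L(3)mbt KD replicate 3, nor *mRpS33* without L(3)mbt KD replicate 1. For *mRpS18C* the difference between the knockdowns was -0.08, with a 95% interval from -0.26 to 0.10.

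Members of one structural group differed in their calls. The L7/L12 stalk recruits translation factors to the ribosome. Of its proteins, *mRpL10* (-0.23 ± 0.064, adjusted p = 0.00529) and *mRpL11*, at its base (-0.25 ± 0.077, adjusted p = 0.00912), were lower in L(3)mbt KD, whereas *mRpL12* was not. *mRpL10* was at 39.8, 37.7 and 36.2 CPM in L(3)mbt KD, against 44.9, 44.2 and 44.1 CPM in control, and *mRpL11* at 19.5, 18.3 and 19.4 CPM in L(3)mbt KD, against 21.5, 24.1 and 22.6 CPM in control. Neither pair of groups overlapped. The call of *mRpL10* was lost with library totals, with at least 10 counts in every library, with the no-feature covariate, with only the libraries under 5% of no-feature reads and without L(3)mbt KD replicate 2 or 3. That of *mRpL11* was lost in more settings, DESeq2 and the length correction among them, and without control replicate 2 or L(3)mbt KD replicate 1 or 2. *mRpL12* was at 108, 107 and 108 CPM in L(3)mbt KD libraries and 97.2, 93.2 and 100.2 CPM in Lint-O KD, against 95.1, 97.7 and 99.8 CPM in control. All 3 L(3)mbt KD libraries lay above control, but the log2 fold change of 0.14 ± 0.054 did not pass the threshold (adjusted p = 0.0364). It passed when libraries were scaled by their totals (0.19). *mRpL1*, of the stalk on the other side of the subunit, had a log2 fold change of -0.04 in L(3)mbt KD (adjusted p = 0.659) and -0.18 in Lint-O KD (adjusted p = 0.0307). In Lint-O KD it was called lower with no filter (-0.20), with the covariate (-0.18) and without control replicate 1 (-0.25).

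At the exit of the tunnel through which the new protein leaves the ribosome, *mRpL24* was lower in L(3)mbt KD (-0.25 ± 0.070, adjusted p = 0.00492) and in Lint-O KD (-0.24 ± 0.071, adjusted p = 0.00977). Both calls were lost without control replicate 2 or 3, with library totals, with at least 10 counts in every library and without robust estimation. That in L(3)mbt KD was also lost with the no-feature covariate and without L(3)mbt KD replicate 2. That in Lint-O KD was also lost with only the 2 conditions compared, with the replicate block and without Lint-O KD replicate 2 or 3. *mRpL23* stood at 110, 100.4 and 108 CPM in L(3)mbt KD libraries and 123, 114 and 114 CPM in Lint-O KD, against 107, 103 and 107 CPM in control. The log2 fold change of *mRpL23* was 0.00 in L(3)mbt KD, with a 95% interval from -0.12 to 0.12, and 0.14 in Lint-O KD (adjusted p = 0.0573). *mRpS29*, the GTP-binding protein of the small subunit known in human as DAP3, had a log2 fold change of -0.01 in L(3)mbt KD and -0.05 in Lint-O KD, with 95% intervals from -0.14 to 0.12 and from -0.18 to 0.08.

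Flies carry 3 genes related to bacterial S18. *mRpS18B* was lower in both knockdowns, with 31.3, 30.9 and 29.0 CPM in L(3)mbt KD libraries and 28.5, 31.3 and 29.9 CPM in Lint-O KD, against 35.4, 38.9 and 38.8 CPM in control. Its log2 fold changes were -0.31 ± 0.070 in L(3)mbt KD (adjusted p = 0.000816) and -0.34 ± 0.071 in Lint-O KD (adjusted p = 0.000757). *mRpS18A*, whose protein sits in the large subunit in mammals despite its name, was at 41.9, 38.2 and 48.9 CPM in L(3)mbt KD libraries and 43.9, 39.7 and 40.9 CPM in Lint-O KD, against 41.7, 44.8 and 46.9 CPM in control. Its groups overlapped in both comparisons, with log2 fold changes of -0.05 and -0.10 (adjusted p = 0.641 and 0.358). *mRpS18C* is described above.

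Beside *mRpL12*, 2 members had all L(3)mbt KD libraries above all control libraries, *mRpS26* and *mRpL20*, which are named because their values stood out. *mRpS26*, a mitochondria-specific protein of the small subunit, was at 68.4, 67.4 and 67.6 CPM in L(3)mbt KD, against 61.7, 62.4 and 59.5 CPM in control (0.15 ± 0.060, adjusted p = 0.0435). *mRpL20* was at 34.0, 31.9 and 32.6 CPM in L(3)mbt KD, against 28.6, 29.5 and 29.8 CPM in control (0.16 ± 0.088, adjusted p = 0.129). Neither passed the threshold, although *mRpS26* did when libraries were scaled by their totals (0.20). *mRpS5* was singled out for its spread. It was at 86.2, 87.8 and 89.4 CPM in L(3)mbt KD libraries and 119.8, 108 and 80.3 CPM in Lint-O KD, against 137, 135 and 67.9 CPM in control. Its low libraries are those with a low share of no-feature reads, and its log2 fold change in L(3)mbt KD was -0.36 ± 0.29 in the fit used throughout, 0.25 with that share as a covariate (called higher) and -0.66 without control replicate 3 (called lower). No direction can be given for *mRpS5*.

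Most members can be divided into homologues of bacterial proteins and mitochondria-specific proteins. Their counts stand beside 15.9% of all genes lower in L(3)mbt KD and 7.58% in Lint-O KD. *mRpS18A* and *mRpS18B*, paralogues of the S18 homologue, were put in neither class, and *mRpS18B* was lower in both knockdowns. Of 43 homologues, 21 were lower in L(3)mbt KD (48.8%) and 10 in Lint-O KD (23.3%; medians -0.25 and -0.14). Of 27 mitochondria-specific members tested, 5 were lower in each knockdown (18.5%; medians -0.15 and -0.09). By subunit name, 14 of 46 mRpL and 13 of 26 mRpS genes were lower in L(3)mbt KD. In Lint-O KD, 10 mRpL and 6 mRpS genes were lower. These counts are descriptions, with no test between the classes. The members lower in L(3)mbt KD lay on every major chromosome arm, 6 of 12 on 2L, 3 of 11 on 2R, 3 of 17 on 3L, 11 of 21 on 3R and 4 of 11 on X. Exon bases were shared with another gene in 43 members, by over 20% in 8. Without those 8, 23 members were lower in L(3)mbt KD and 16 in Lint-O KD. The median control level of the members called lower in L(3)mbt KD was 65.9 FPKM and that of the members not called was 61.8 FPKM.

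The promoters of the members were searched from 250 bases before to 50 bases after the annotated start, on both strands. The DNA replication-related element (DRE), TATCGATA, which is bound by the factor DREF, occurred in 15 of 73 members (20.5%), against 14.2% of the protein-coding genes tested and 9.26% of all promoters searched. It occurred in 5 of the 27 members lower in L(3)mbt KD and in 10 of the 45 not called. Its inner hexamer ATCGAT, which overlaps every DRE and was added after the promoter of *mRpS18C* had been read, occurred in 37.0% of the members and 30.8% of the genes tested, and in 12 of the 27 and 15 of the 45. The E-box CACGTG, a site for Myc and Max, occurred in 6.85% of the members and 4.50% of the genes tested. The core of the motif-1 binding protein site, GGTCACAC, occurred in 11% of the members and 12.2% of the genes tested, and GAGAGAG, a site for the GAGA factor, in 1.37% of the members and 5.76% of the genes tested. A match is a description of these letters and not of binding. The examples below show a DRE in *mRpL19*, lower in both knockdowns (-0.31 and -0.26) and chosen after its values were seen, a DRE in *mRpL12*, called in neither, and an E-box in *mRpL23*, called in neither.

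The *mRpL19* line gives the 150 bases before its start (chr3R:8673959-8674108, plus strand), the *mRpL12* line bases 13 to 42 of the gene (chr3L:8956803-8956832, plus strand) and the *mRpL23* line the 10 bases before the start and the first 20 of the gene (chr3L:2373685-2373714, minus strand). Capitals mark the DRE or the E-box.

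mRpL19: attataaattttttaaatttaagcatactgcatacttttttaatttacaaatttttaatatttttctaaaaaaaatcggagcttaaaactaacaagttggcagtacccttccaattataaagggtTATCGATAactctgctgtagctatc

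mRpL12: ccctggctgttTATCGATAaactgctcaca

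mRpL23: gttggacaaccCACGTGcttttacacgggt

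Members often lay back to back with another gene. In 51 of 73 members (69.9%) the nearest protein-coding start was divergent and within 500 bases, against 34.5% of the protein-coding genes tested. Of these partner genes 49 were tested, and the partners were read against the members in each knockdown. In L(3)mbt KD, 11 partners were lower and 6 higher, where 15.9% of all genes tested were lower and 22.6% higher. In Lint-O KD, 6 partners were lower and 4 higher, where 7.58% of all genes tested were lower and 16.8% higher. Of the members in the 49 pairs, 19 were called lower in L(3)mbt KD and 12 in Lint-O KD. Both genes of a pair were lower in 4 pairs in L(3)mbt KD and in 3 in Lint-O KD. Whether members and partners fell together more often than unrelated genes was not tested. In *mRpS16* with *cg* and *mRpS6* with *Cip4*, named for this, the partner was higher in L(3)mbt KD (0.28 and 0.19) while the member was lower (-0.30 and -0.27). The call of *mRpS6* was lost without control replicate 2 or L(3)mbt KD replicate 1 or 2.

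The pairs with the largest change of the partner are named because of these values. *CG11674*, whose start lies 410 bases from that of *mRpL38*, had 1407, 1321 and 1638 counts in L(3)mbt KD libraries and 446, 472 and 415 counts in Lint-O KD, against 23, 9 and 21 counts in control. This was a log2 fold change of 6.28 in L(3)mbt KD (adjusted p = 2.76e-19) and 4.82 in Lint-O KD (adjusted p = 1.72e-16). *mRpL38*, a protein of the central protuberance of the large subunit, stood at 69.8, 68.4 and 77.7 CPM in L(3)mbt KD libraries and 71.6, 69.98 and 71.4 CPM in Lint-O KD, against 65.2, 67.7 and 77.2 CPM in control. Its groups overlapped, with log2 fold changes of 0.04 (95% interval -0.10 to 0.18) and 0.02 (-0.12 to 0.16). Of other pairs, the log2 fold changes in L(3)mbt KD and then Lint-O KD were as follows for *mRpS26* with *CG13698* (partner 2.52 and 1.21, member 0.15 and -0.05), for *mRpL33* with *norpA* (partner 1.05 and 1.22, member -0.19 and -0.12) and for *mRpL50* with *mei-P22* (partner 1.00 and 0.90, member -0.15 and -0.21). None of these members was called in either knockdown.

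The 150 bases before each start of the *mRpL38* and *CG11674* pair are given because their genes differed most, for *mRpL38* at chrX:14226139-14226288 on the plus strand and for *CG11674* at chrX:14225880-14226029 on the minus strand (RefSeq, dm6). Neither stretch holds any of the motifs searched, so there are no capitals.

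mRpL38: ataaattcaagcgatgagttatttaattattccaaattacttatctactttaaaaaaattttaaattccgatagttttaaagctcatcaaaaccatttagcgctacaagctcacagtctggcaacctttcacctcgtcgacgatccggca

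CG11674: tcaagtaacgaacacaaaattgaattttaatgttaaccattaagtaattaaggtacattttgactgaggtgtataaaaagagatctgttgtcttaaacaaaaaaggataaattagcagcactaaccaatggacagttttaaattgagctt

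**Figure D4:**
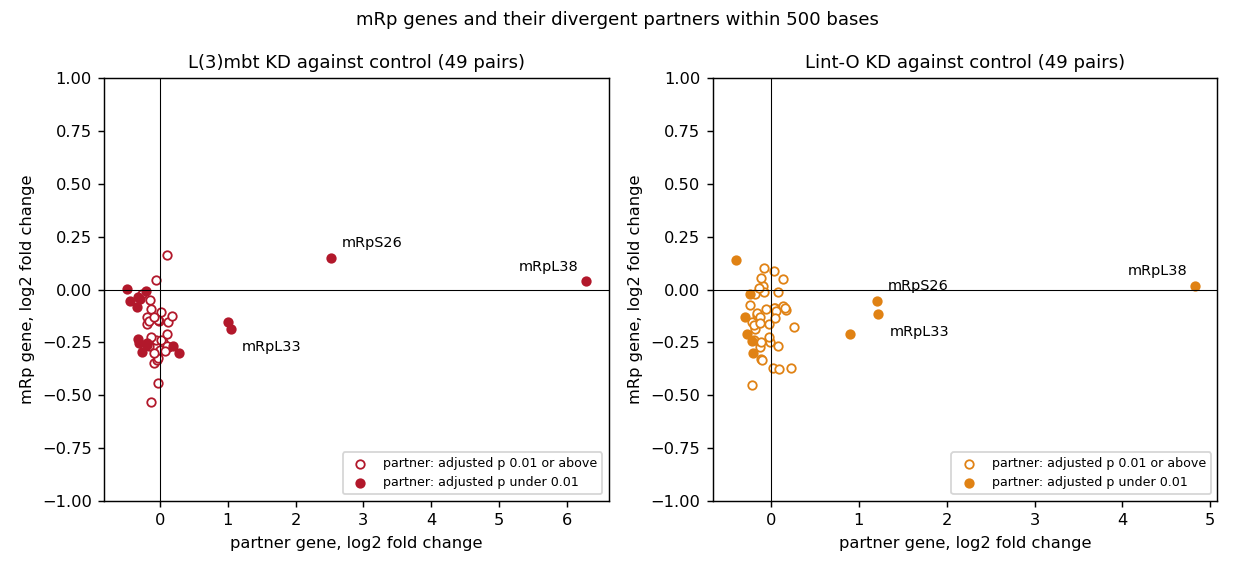
Log2 fold change of each mRp gene (y axis) against that of its divergent partner within 500 bases (x axis), in L(3)mbt KD (left) and Lint-O KD (right) against control, 49 pairs each. Filled points are pairs whose partner has an adjusted p under 0.01. The partner of *mRpL38* lies at 6.28 and 4.82 while *mRpL38* itself lies at 0.04 and 0.02.

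The other genes of mitochondrial gene expression gave further context, with no test of any list. Over all genes tested, 15.9% were lower in L(3)mbt KD and 7.58% in Lint-O KD. No tested gene of the lists in this paragraph was called higher in either knockdown, where 22.6% and 16.8% of all genes tested were higher. Members of the mitochondrial ribosome with other symbols were *tko* and *bonsai*, of which *tko* was lower in Lint-O KD (-0.30, adjusted p = 0.000796). Of 9 mitochondrial translation factors, 4 were lower in L(3)mbt KD (44.4%) and 2 in Lint-O KD (22.2%). Among them were *mIF3* (-0.39 in L(3)mbt KD) and *mEFTu2* (-0.31 in L(3)mbt KD). Of 15 mitochondrial aminoacyl-tRNA synthetases, 5 were lower in L(3)mbt KD (33.3%) and 1 in Lint-O KD (6.67%). They were led by *ProRS-m* (-0.49 in L(3)mbt KD and -0.35 in Lint-O KD) and *AlaRS-m* (-0.42 in L(3)mbt KD). Of 7 factors of mitochondrial transcription and RNA, 4 were lower in L(3)mbt KD (57.1%) and 0 in Lint-O KD. At the head in L(3)mbt KD were *mTerf3* (-0.47) and *mTTF* (-0.45). The values of these in Lint-O KD, -0.15 and -0.22, were not past the threshold. Of 11 tested genes of mitochondrial protein import, 3 were lower in L(3)mbt KD (27.3%) and 2 in Lint-O KD (18.2%), with *Tom70* in both (-0.23 and -0.25). Symbols are those of RefSeq where the table lists an older one.

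The subunits of the respiratory chain, which use the products of the mitochondrial ribosome, are given for comparison, with no test against the members. Over all genes tested, 15.9% were lower and 22.6% higher in L(3)mbt KD, and 7.58% lower and 16.8% higher in Lint-O KD. Of 32 tested subunits of complex I, 1 was lower in L(3)mbt KD and 2 in Lint-O KD, and the medians were -0.03 and -0.06. Of 8 tested in complex III, 3 were lower and 1 higher in L(3)mbt KD, and 1 was lower and 1 higher in Lint-O KD, led by *UQCR-C1* (-0.42 and -0.33) and *Cyt-c1L* (0.43 and 0.51). Of 11 tested in complex IV, 3 were higher in L(3)mbt KD and 2 in Lint-O KD. The genes that were higher in both were *COX4L* (3.05 and 2.98) and *COX7AL* (2.84 and 3.07), paralogues of the standard subunits. Of 13 tested in ATP synthase, 2 were higher in L(3)mbt KD, and 1 was higher and 1 lower in Lint-O KD, the higher one in both being the paralogue *ATPsynbetaL* (3.38 and 3.64). No mRp gene was called higher in either knockdown, and neither was any tested complex I subunit or gene of the lists in the paragraph before. Of 87 cytoplasmic ribosomal protein genes tested, 83 were below 0 in L(3)mbt KD (median -0.17) and 66 in Lint-O KD (median -0.06). Of the 87, 21 were called lower and 4 higher in L(3)mbt KD, and 5 lower and 3 higher in Lint-O KD. The higher ones included *RpS5b* (3.49 and 1.94) and *RpS19b* (1.11 and 0.85), paralogues with known expression in the germline.

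**Figure D5:**
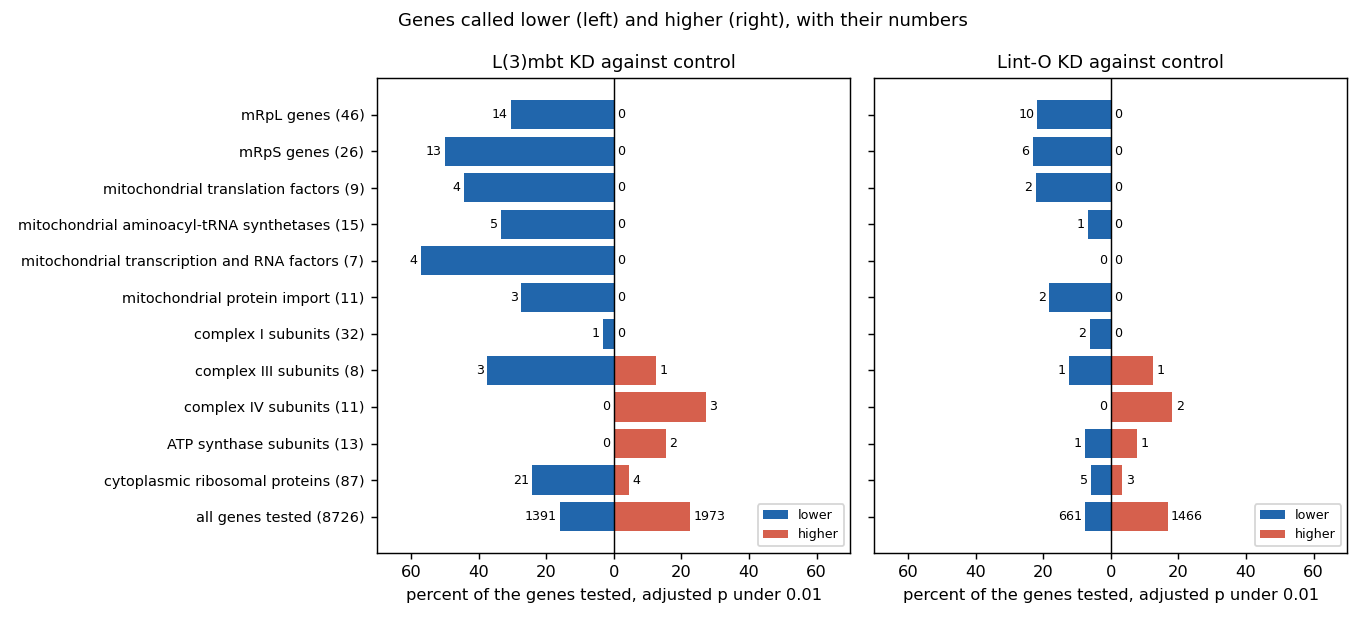
Percent of the tested genes of each list that were called lower (bars to the left) or higher (bars to the right) at an adjusted p under 0.01, in L(3)mbt KD (left panel) and Lint-O KD (right panel) against control, with the number of genes at each bar and the number tested in parentheses. The mRpL and mRpS bars point to the left only (14 and 13 genes in L(3)mbt KD, 10 and 6 in Lint-O KD), whereas all genes tested have more genes higher than lower. The bars of the translation factors, aminoacyl-tRNA synthetases, protein import and complex I also point to the left only.

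Among the regulators listed, *Max*, the partner of Myc at E-boxes, was lower in L(3)mbt KD (-0.38, adjusted p = 0.000329) and in Lint-O KD (-0.39, adjusted p = 0.000388). *srl*, the fly relative of the mammalian PGC-1 coactivators of mitochondrial genes, was lower in Lint-O KD (-0.29, adjusted p = 0.000128), with -0.12 in L(3)mbt KD (adjusted p = 0.0461). *Dref*, which encodes the DRE-binding factor, was higher in L(3)mbt KD (0.20, adjusted p = 0.00378), with 0.09 in Lint-O KD (adjusted p = 0.196). *ewg*, a relative of mammalian NRF-1, was higher in both (1.47 and 2.33) at a mean of under 2 CPM. What part these genes had in the levels of the members was not tested.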

How the data were processed

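Counts of reads per gene for 9 RNA-seq libraries were deposited by the authors without normalization. Per the methods and the submitters' processing notes, reads mapping to rRNAs were excluded, the rest were mapped to dm6 with HISAT2, and HTSeq is named. Its annotation, mode and strand setting are not given in the sources used here. Rows for reads on no feature or ambiguous between genes (1.47% to 1.61%) stayed out of library sizes and tests. The ChIP-seq was not analysed here.

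The members and gene lists were chosen with earlier results of these data known. All 73 members matched RefSeq Release 6, which gave exon lengths, overlaps and promoters. Counts were filtered with filterByExpr, scaled by TMM and fitted over all 9 libraries with edgeR 4.0.16 (R 4.3.3; glmQLFit with robust estimation, glmQLFTest). P-values were adjusted by Benjamini-Hochberg over the 8726 genes tested, with a threshold of 0.01. CPM was computed here with edgeR's TMM factors, and FPKM from it and the exon length. SE was derived here from the log2 fold change and the F statistic of the test, and intervals (95%) from the SE and a t quantile. A count of 3, the floor taken as detectable, is 0.0958 to 0.158 CPM and covers counting error only. The fit was also run on simulated data, whose planted changes were larger than most of the falls called here. That run does not show how well such smaller falls are recovered.

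Named members were the 6 per knockdown and direction, and 4 between knockdowns, with the largest fold change among those called and not overlapping with the other condition, the 5 highest and lowest by FPKM in control, the S18 set, and proteins of described roles. From other lists at most 2 genes per direction were named. Members outside this rule are said to be. Alternatives were DESeq2 1.42.0, other scalings, filters and libraries, a fit without robust estimation, the replicate block, a no-feature covariate and a correction for exon length.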

Additional observations from a re-analysis of the deposited data

Results flagged for a closer look

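The effects of the knockdowns differed by a direct test, L(3)mbt KD against Lint-O KD, for *mRpS33* (log2 difference -0.34) and *mRpS21* (-0.33). These were 2 of the 72 members tested, where 6.83% of all genes tested were lower. Both were lower in L(3)mbt KD, in all 3 libraries against all 3 of Lint-O KD. With the no-feature covariate both calls were lost, and *mRpL37* and *mRpS2* were called lower instead. Neither call was kept without L(3)mbt KD replicate 2 (-0.27 and -0.29) or without Lint-O KD replicate 1 (-0.29 and -0.25). *mRpS21* shares 48.0% of its exon bases with *CG8870*. In groups of 3 libraries no sample was tested for standing apart from its group.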

How the results depend on the processing

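The direction of the summed level held under every scaling. It was 92.5% of control in L(3)mbt KD with library totals. The members lower in L(3)mbt KD (27) numbered 15 with library totals and 17 to 28 when 1 library was left out. One or a few were called higher there: 2 with library totals, 2 at an adjusted p under 0.05, and 1 each with the no-feature covariate, with the exon length correction and replicate block, and with only the libraries under 5% of no-feature reads, an alternative chosen after seeing the data. The members lower in Lint-O KD (16) numbered 10 with library totals, 26 at an adjusted p under 0.05, 3 with only the libraries under 5% of no-feature reads and 8 to 18 with 1 library left out. In L(3)mbt KD against Lint-O KD, 1 member was higher with DESeq2 size factors, library totals, DESeq2's own test, the covariate, the length correction, and that correction with the replicate block, 2 at an adjusted p under 0.05, and 0 to 1 with 1 library left out. The lower members there (2) numbered 4 with no filter, 4 with the replicate block, 4 with the length correction and block, 7 at an adjusted p under 0.05, 0 with only the libraries under 5% and 0 to 2 with 1 library left out. DESeq2 called 24 and 17 members lower in L(3)mbt KD and Lint-O KD. Over all genes, library totals gave 2233 higher and 943 lower in L(3)mbt KD (against 1973 and 1391), and 1617 higher and 466 lower in Lint-O KD (against 1466 and 661). The cause was not tested.

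With the replicate block, 29 members were lower in L(3)mbt KD, 16 in Lint-O KD and 4 between the knockdowns. It lost *mRpL24* and gained *mRpS9* in Lint-O KD, and gained *mRpL32* and *mRpL55* in L(3)mbt KD. With the length correction added, *mRpL1* was also called lower in Lint-O KD and *mRpL12* higher in L(3)mbt KD. The deviations of same-numbered libraries correlated at -0.164, -0.126 and -0.210 for L(3)mbt KD with control, and those of different-numbered ones at -0.0594 to 0.1781. For Lint-O KD with control the same-numbered values were 0.091, 0.117 and 0.262, above all different-numbered ones (-0.1745 to 0.0803). These correlations do not settle whether the numbers are pairs, and the fit used throughout has no block.

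Of the named members, those below changed sign, all but *mRpS5* without passing the threshold on either side. In L(3)mbt KD these were *mRpL1* (0.0205 with library totals, -0.1124 to 0.0122 with 1 library left out), *mRpL23* (-0.0332 with no filter, -0.0453 with libraries under 5%, -0.0414 to 0.0368 with 1 left out), *mRpL38* (-0.0362 with the covariate, -0.1251 with libraries under 5%, -0.044 to 0.0874 with 1 left out), *mRpS18A* (0.0065 with library totals, -0.1753 to 0.0279 with 1 left out), *mRpS29* (0.042 with library totals, 0.0156 with at least 10 counts in every library, -0.0787 to 0.0173 with 1 left out) and *mRpS5* (0.2469 with the covariate and 0.3458 with libraries under 5%, both called higher). In Lint-O KD they were *mRpL12* (0.022 with library totals, 0.006 with at least 10 counts, -0.05 to 0.0163 with 1 left out), *mRpL20* (-0.0681 to 0.1634 with 1 left out), *mRpL38* (-0.0092 with no filter, -0.1404 with libraries under 5%, -0.0533 to 0.071 with 1 left out), *mRpS26* (0.0082 with libraries under 5%) and *mRpS5* (0.2157 with libraries under 5%, -0.4224 to 0.0154 with 1 left out).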
